A study of Homo sapiens with 24 samples.

Results

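The ATP-binding cassette (ABC) family was followed in Panc-1 cells, a widely used cell line that derives from a pancreatic ductal adenocarcinoma (PDAC) of a human patient. Members were every gene whose symbol is ABC, a subfamily letter from A to G and a number, and 32 of the 14426 genes listed in any of the 3 deposited tables met this rule. Of these, 30 were listed for all 3 lines, whereas ABCB1 and ABCC8 were listed for Tet-PTF1a only. The members were 8 ABCA, 6 ABCB, 8 ABCC, 3 ABCD, 1 ABCE, 3 ABCF and 3 ABCG genes. A further 13 protein-coding genes of the GENCODE annotation that bear such symbols, among them ABCB4, ABCB11, ABCC9, ABCC11, ABCC12, ABCD2, ABCG5 and ABCG8, were not analysed here.

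Polyadenylated RNA was sequenced from 3 stable Panc-1 lines, Tet-One with an empty plasmid, Tet-MIST1 with a myc-tagged rat MIST1 reading frame and Tet-PTF1a with a myc-tagged mouse PTF1a reading frame, both driven by a promoter that answers to doxycycline (Dox). Each line gave 4 Control libraries without Dox and 4 Dox libraries (1 µg/ml of the drug for 72 h), so that 24 libraries fell into 6 groups. All cells had been grown in serum depleted of tetracycline, and the lines came from screened clones, so that line, clone and passage (32 for Tet-One and Tet-PTF1a, 33 for Tet-MIST1) cannot be told apart. The comparisons ask which members answered to each induced acinar factor, whether the answers differed between lines, and how the lines differed before Dox.

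ABC proteins share a nucleotide-binding domain that hydrolyses ATP, and most members couple it to membrane-spanning segments that move a substrate across a membrane. Several ABCB, ABCC and ABCG members expel drugs and their conjugates and are known for drug resistance in cancer. Most ABCA members and some ABCG members move sterols and other lipids, ABCD members serve peroxisomes and lysosomes, and a set of ABCB members sits in mitochondria. ABCE and ABCF proteins have no membrane segments and act on ribosomes, and ABCC8 is the regulatory subunit of the ATP-sensitive potassium (K-ATP) channel.

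Libraries held from 17210989 to 43018494 counts over the listed genes, and this depth sets the precision of the low members. All 6 ductal markers (KRT7, KRT8, KRT18, KRT19, SOX9 and EPCAM) were listed in each line. Their summed level ran from 3448 to 3619 CPM in Tet-PTF1a Control and from 1732 to 1784 CPM in Tet-PTF1a Dox libraries, from 1700 to 2146 CPM over the 8 Tet-MIST1 libraries and from 5084 to 8102 CPM over the 8 Tet-One libraries. In Tet-PTF1a KRT8, KRT18, KRT19 and EPCAM fell while KRT7 and SOX9 rose, and the part of this shift in the results below was not tested. Of 7 acinar markers only PRSS1 was listed, for Tet-PTF1a alone, at 0.0262 to 0.0943 CPM in Control and 2.81 to 3.47 CPM in Dox libraries. None of 4 islet, 3 leukocyte and 3 endothelial markers was listed. Of 3 fibroblast markers COL1A1 and PDGFRB were listed, with a sum of 149 to 157 CPM in Tet-PTF1a Control and 63.9 to 66.3 CPM in Tet-PTF1a Dox libraries. The human PTF1A gene had 0 to 2 counts in Tet-PTF1a Control and 53 to 168 counts in Tet-PTF1a Dox libraries, where its own transcripts and those of the mouse reading frame cannot be told apart. BHLHA15, the human MIST1 gene, was not listed for Tet-MIST1, so the induction of MIST1 cannot be read from these counts. Tet-One Dox replicate 1 stood apart, since its log2 levels over 9950 genes had an SD of 0.571 from the mean of its 3 group mates, against 0.0967 to 0.105 between pairs of those 3. Tet-MIST1 Dox replicate 1 lay 0.224 from its own mates on the same measure, the next largest value. Results that rest on Tet-One Dox replicate 1 are therefore given with and without it.

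Levels without Dox spanned a wide range, and the largest belonged to a drug efflux pump and to soluble ribosome factors. In CPM per kb of listed exons, which allows levels of different genes to be set side by side, ABCC1 (MRP1, a pump for glutathione conjugates and drugs) was at 80.7 ± 0.932 (SD, n = 4) in Tet-One Control. It was followed by ABCF1, a factor of translation initiation, at 57.0 ± 1.16, and by ABCE1, which splits ribosomes after termination, at 41.0 ± 1.19. ABCF1 is also listed on 6 alternative sequences of its chromosome region, and its level was divided by the exon length on the primary chromosome. The lowest 3 were ABCA10, a little-studied lipid transporter homologue, at 0.0568 ± 0.0215, the very large ABCA13 at 0.0817 ± 0.0125, and ABCG1, a sterol exporter to high-density lipoprotein, at 0.0877 ± 0.00631. Neighbours in this order of the lowest 3 differed by less than the sum of their SDs, and the ratio of the highest to the lowest member was 1421. In single libraries ABCA10 had 8 to 19 counts and ABCG1 had 11 to 14 counts in this group.

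Across the Control groups, 20 of 30 members (Tet-One), 21 of 30 (Tet-MIST1) and 21 of 32 (Tet-PTF1a) had a mean above 10 CPM. ABCC1 alone took 26.2% of the CPM of all members (Tet-One), 20.8% (Tet-MIST1) and 26.7% (Tet-PTF1a). CPM values were scaled by the authors for each table by itself, so levels in different lines are set side by side here and differences between lines were tested on counts only. ABCB1 (P-glycoprotein, the classical multidrug pump) was at 0.401 ± 0.0482 CPM per kb in Tet-PTF1a Control, far below ABCC1 at 79.1 ± 2.37. Counts of ABCC6, which has near-identical pseudogene copies, are uncertain because the handling of shared reads is not given in the sources used here. The exons of ABCA5 and ABCA10 overlap by 287 bases on the same strand, those of ABCC10 and DLK2 by 74 bases and those of ABCE1 and ANAPC10 by 284 bases on opposite strands, and whether strand was used in counting is not given in the sources used here.

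**Figure D1:**
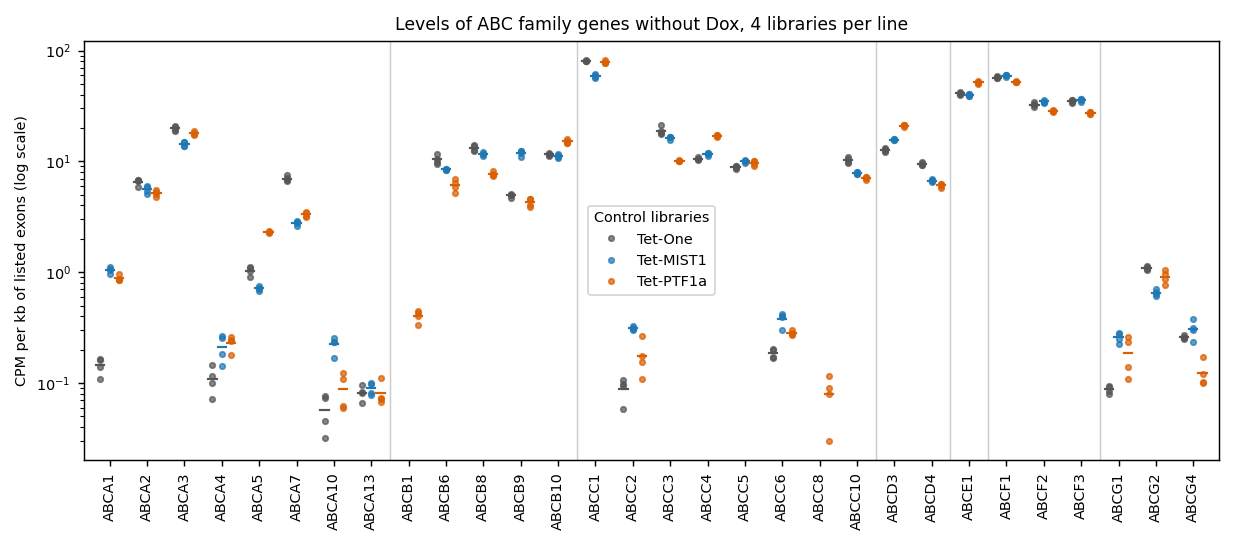
Level of members in the Control libraries of the 3 lines, in CPM per kb of listed exons on a log axis, with points for the 4 libraries of a line, short bars for their mean and vertical lines between subfamilies. ABCC1, ABCF1, ABCE1, ABCF2 and ABCF3 lie above 25 in each line, and ABCA1 lies near 0.144 (Tet-One), 1.05 (Tet-MIST1) and 0.881 (Tet-PTF1a).

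With the empty plasmid, no member passed FDR under 0.05 between Dox and Control. The FDR is the Benjamini-Hochberg adjusted p of edgeR's quasi-likelihood test over all genes tested, and DEGs are genes with FDR under 0.05. In Tet-One 28 members were tested, ABCA10 and ABCG1 being too low, and 0 were higher and 0 lower, as were 0% of all genes in each direction. No member had an unadjusted p under 0.05 either, against 401 of all 13428 genes tested, and DESeq2 also called 0. The members' median log2 fold change was -0.02, beside 0.00 over all genes tested.

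Single values show the weight of 1 library in this group. ABCC1 was at 536, 533, 526 and 523 CPM in the Tet-One Control libraries and at 292, 585, 549 and 563 CPM in the Dox libraries, and ABCC3 (MRP3, a pump for organic anions and glucuronides) at 111, 93.6, 99.0 and 95.4 and at 65.7, 112, 105 and 107 CPM. In both cases the first Dox library was the lowest of the 8 and the other 3 lay among or above the Control libraries. ABCC4 (MRP4, which exports cyclic nucleotides and nucleotide analogues) was at 64.4, 65.6, 68.0 and 65.3 and at 47.2, 68.7, 69.6 and 72.8 CPM, ABCC5 (MRP5, with similar substrates) at 63.9, 61.0, 64.3 and 60.3 and at 35.9, 67.9, 64.4 and 66.2 CPM, and ABCC10 (MRP7) at 53.2, 59.9, 53.4 and 57.4 and at 30.2, 61.5, 55.7 and 58.7 CPM. They share that low first Dox library. ABCG2 (BCRP, a pump of many anticancer drugs) had no such library, with 5.05, 5.45, 5.25 and 4.98 CPM in Control and 5.32, 5.36, 5.71 and 5.73 CPM in Dox libraries. ABCC2 (MRP2) was at 0.510, 0.579, 0.316 and 0.531 and at 0.263, 0.664, 0.617 and 0.787 CPM, and ABCC6 at 1.12, 0.947, 0.948 and 1.11 and at 0.817, 1.12, 0.884 and 0.984 CPM, with overlap of Control and Dox in both. When Tet-One Dox replicate 1 was left out, 0 of 28 members were higher and 0 lower, beside 0% and 0.00746% of all genes. Then 8 members had an unadjusted p under 0.05, and the smallest FDR among members was 0.21 (ABCA2).

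With Dox in Tet-PTF1a, 20 of 32 members changed, 11 upward and 9 downward. Among all 14053 genes tested, 23.8% were higher and 24.4% lower. The fall in ABCC3 was the largest change in the family, followed by the rise in ABCA1, the exporter of cholesterol to lipid-poor apolipoprotein, and the fall in ABCG2. The members' median absolute log2 fold change was 0.18, beside 0.12 over all genes, and their median signed change was 0.02, beside 0.00. In these bulk samples a lower share of cells with a transcript and less of it per cell cannot be told apart. In the subfamilies reported here by count, which are not all of them, 3 rose and 2 fell of 8 ABCA members, 2 and 3 of 8 ABCC, 1 and 0 of 1 ABCE, 1 and 0 of 3 ABCF, and 0 and 1 of 3 ABCG members. The median log2 fold change of the ABCC members was -0.33.

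**Figure D2:**
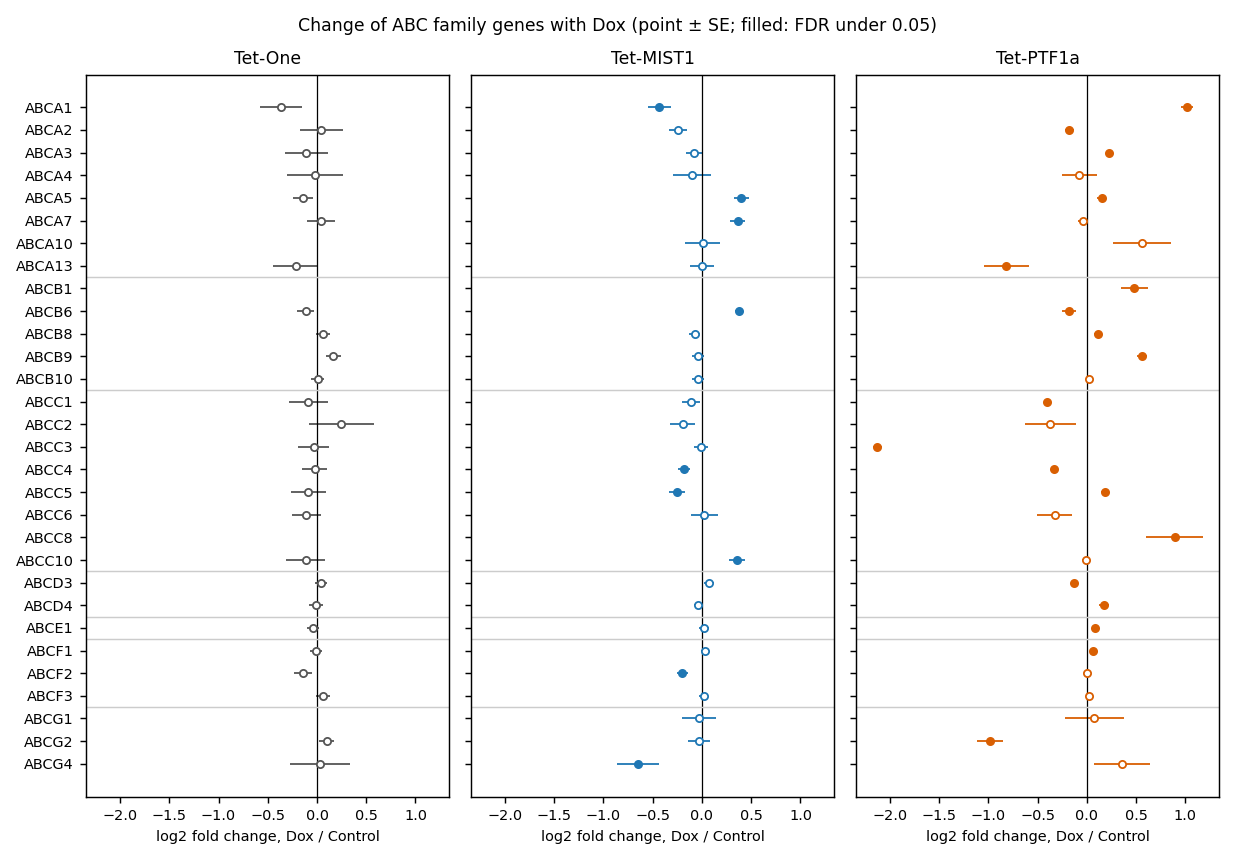
Log2 fold change (Dox over Control) of members, 1 panel per line, with the SE as a horizontal line and filled points for FDR under 0.05; rows are genes and grey lines part the subfamilies. No point is filled for Tet-One, 9 are for Tet-MIST1 and the most are for Tet-PTF1a, where ABCC3 at -2.13 and ABCA1 at 1.01 lie farthest from 0.

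Among drug efflux genes, 4 fell, 2 rose and 3 did not pass the test in Tet-PTF1a, beside 24.4% of all genes lower and 23.8% higher. Their median log2 fold change was -0.33. With all libraries fitted, 0 of 8 drug efflux genes had a higher and 2 a lower response than in Tet-One, beside 5.52% and 7.34% of all genes. ABCC3, on chromosome 17 (hg19 chr17:48712218-48769063, plus strand, 30 exons), was at 52.7, 53.9, 53.1 and 52.7 CPM in the 4 Control libraries and at 11.7, 11.8, 13.2 and 11.8 CPM in the 4 Dox libraries. Every Dox library lay far below every Control library, a 4.37-fold fall (log2 fold change -2.13, SE 0.047, FDR 7.37e-38). ABCG2 (hg19 chr4:89011416-89152474, minus strand, 17 exons) stood at 4.13, 4.98, 3.62 and 4.62 CPM in Control and at 1.84, 2.40, 2.47 and 1.95 CPM in Dox libraries. The groups did not overlap, and ABCG2 fell 1.98-fold (log2 fold change -0.99, SE 0.13, FDR 4.29e-09). ABCC1 (hg19 chr16:16043434-16236930, plus strand, 31 exons), the most abundant pump, was at 542, 508, 509.9 and 516 CPM in Control and at 394, 383, 398 and 395 CPM in Dox libraries. Its fall was smaller in fold but large against the spread, since the Dox libraries kept within 15 CPM of each other (log2 fold change -0.40, SE 0.022, FDR 1.71e-21). For ABCC4, Control libraries were at 108, 109, 103 and 107 CPM and Dox libraries at 87.1, 82.8, 86.1 and 83.2 CPM, again without overlap (log2 fold change -0.33, SE 0.029, FDR 5.28e-14).

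A pair of pumps went the other way. ABCB1 was low throughout, at 2.00, 1.57, 2.08 and 1.92 CPM in Control and at 2.93, 2.64, 2.73 and 2.62 CPM in Dox libraries. All Dox libraries lay above all Control libraries, and ABCB1 rose 1.40-fold (log2 fold change 0.48, SE 0.14, FDR 0.00278). ABCC5 was at 63.9, 71.5, 70.6 and 66.2 CPM in Control and at 78.3, 76.3, 74.9 and 76.5 CPM in Dox libraries, a small rise without overlap (log2 fold change 0.18, SE 0.033, FDR 1.24e-05). The remaining 3 did not pass the test. ABCC10 was at 39.5, 38.7, 39.4 and 37.03 and at 38.4, 37.8, 39.0 and 38.3 CPM (log2 fold change -0.01, SE 0.039, FDR 0.887). ABCC2 was at 0.589, 0.952, 0.844 and 1.44 and at 0.632, 0.848, 0.669 and 0.731 CPM, with 11 to 55 counts a library (log2 fold change -0.37, SE 0.26, FDR 0.199). ABCC6 was at 1.51, 1.57, 1.54 and 1.68 and at 0.919, 1.08, 1.44 and 1.40 CPM, and although its Dox libraries all lay below its Control libraries the test was not passed (log2 fold change -0.33, SE 0.18, FDR 0.112).

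Added up per kb over the 8 drug efflux genes listed in all lines, the level was 122.6 to 127.4 CPM per kb in Tet-PTF1a Control and 92.5 to 95.5 in Tet-PTF1a Dox libraries. ABCC1 made up 62.6 to 64.8% of this sum in Control and 63.2 to 63.8% in Dox libraries. Without ABCC1 the sum was 44.7 to 46.3 in Control and 34.0 to 34.9 in Dox libraries, and Dox libraries were the lower ones in both sums. In Tet-MIST1 the sum was 101.9 to 109.3 in Control and 81.7 to 113.5 in Dox libraries, and in Tet-One it was 128.6 to 133.2 in Control and 76.4 to 143.6 in Dox libraries, with overlap in each. The 76.4 belongs to Tet-One Dox replicate 1, without which that group ran from 135.5 to 143.6 and lay above the Control libraries.

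**Figure D3:**
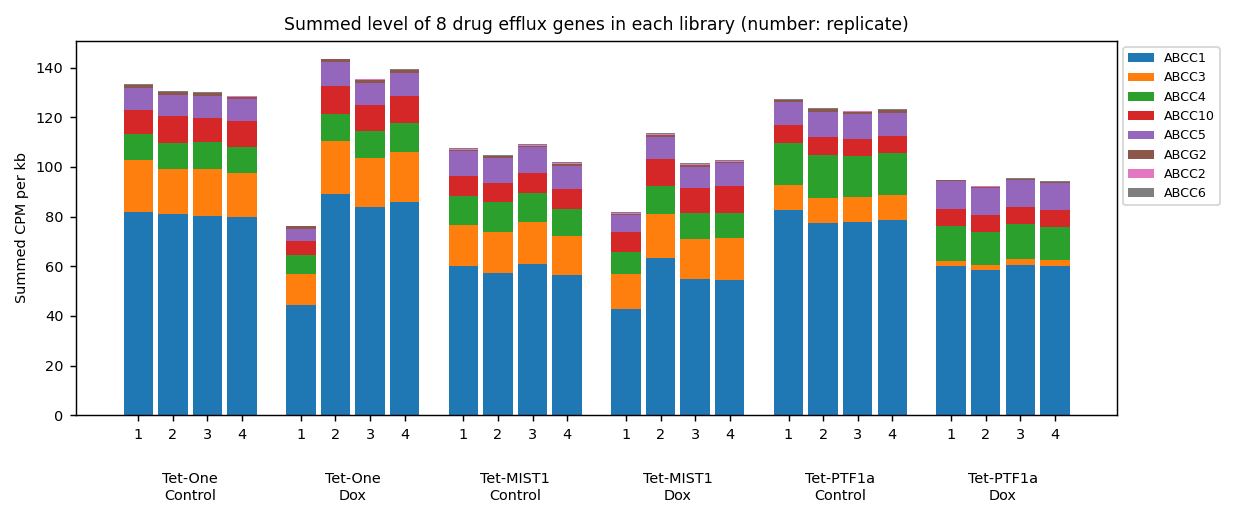
Summed level of 8 drug efflux genes in each of the 24 libraries, in CPM per kb of listed exons, with a coloured segment for each gene and the replicate number under each bar. The Tet-PTF1a Dox bars (92.5 to 95.5) are shorter than all Tet-PTF1a Control bars (122.6 to 127.4), ABCC1 is the tallest segment of every bar, and the first Tet-One Dox bar is the shortest of all at 76.4.

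Of 10 sterol and lipid members tested in Tet-PTF1a, 3 rose, 2 fell and 5 did not pass the test, beside 23.8% of all genes higher and 24.4% lower. ABCA1 (hg19 chr9:107543284-107690527, minus strand, 50 exons) was at 9.20, 8.85, 10.1 and 8.84 CPM in Control and at 18.9, 19.4, 18.6 and 18.1 CPM in Dox libraries. The groups lay far apart, and ABCA1 rose 2.02-fold (log2 fold change 1.01, SE 0.062, FDR 1.39e-19). ABCA3, a lipid transporter known from lamellar bodies of the lung, was at 118, 114, 120.3 and 124 CPM in Control and at 134, 139, 141 and 143 CPM in Dox libraries (log2 fold change 0.23, SE 0.028, FDR 1.78e-09). ABCA5, of late endosomes and lysosomes, was at 21.9, 21.7, 21.4 and 21.3 CPM in Control and at 25.1, 23.5, 24.9 and 22.9 CPM in Dox libraries (log2 fold change 0.15, SE 0.049, FDR 0.00979). Both rises were small with no overlap between groups. ABCA13 was at 1.25, 1.90, 1.24 and 1.15 CPM in Control and at 0.861, 0.895, 0.772 and 0.487 CPM in Dox libraries. It fell 1.76-fold (log2 fold change -0.82, SE 0.23, FDR 0.00117), although at these levels 1 Control library was well above the other 3. ABCA2, an endolysosomal lipid transporter, also fell (log2 fold change -0.18, SE 0.044, FDR 0.000664), with 40.05 to 45.7 CPM in Control and 34.7 to 41.0 CPM in Dox libraries, ranges that overlapped. ABCA4, ABCA7, ABCA10, ABCG1 and ABCG4 did not pass the test, with log2 fold changes from -0.08 (ABCA4) to 0.56 (ABCA10, SE 0.30).

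ABCC8 (SUR1) was close to the limit of what these libraries can measure, at 0.566, 0.392, 0.149 and 0.446 CPM in Control and at 0.574, 1.18, 0.824 and 0.822 CPM in Dox libraries, or 3 to 24 and 10 to 27 counts. Each Dox library lay above each Control library in CPM, by 0.574 against 0.566 at the closest, and ABCC8 rose 1.85-fold (log2 fold change 0.89, SE 0.29, FDR 0.00327). Genes were kept at over 0.5 CPM in at least 4 libraries, and ABCC8 met this limit through its Dox libraries. The filter thus favours a rise of ABCC8, so its call and lack of overlap are not independent of the filter. The partner of ABCC8 in the K-ATP channel, the pore subunit KCNJ11, rose in the same line (log2 fold change 1.34, FDR 1.83e-11), from 1.12 to 1.58 CPM in Control to 3.17 to 3.91 CPM in Dox libraries. KCNJ11 did not pass the test in Tet-One (log2 fold change -0.09) or in Tet-MIST1 (log2 fold change -0.14).

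Both members of the lysosomal list, ABCB9 and ABCD4, rose in Tet-PTF1a, where 23.8% of all genes were higher. ABCA2 and ABCA5, also placed in lysosomes above, were counted with the lipid members, and of these ABCA2 fell and ABCA5 rose. ABCB9 (TAPL, a lysosomal peptide transporter) was at 15.9, 15.1, 17.9 and 17.8 CPM in Control and at 25.5, 24.6, 25.2 and 23.8 CPM in Dox libraries, a 1.47-fold rise without overlap (log2 fold change 0.56, SE 0.054, FDR 1.37e-12). ABCD4, which helps cobalamin out of lysosomes, rose less, from 18.3 to 19.8 CPM in Control to 21.1 to 22.1 CPM in Dox libraries (log2 fold change 0.17, SE 0.051, FDR 0.00426). With all libraries fitted, the response differed from Tet-One for ABCB9 but not for ABCD4 (log2 difference 0.18, FDR 0.17). In Tet-One the Dox libraries of ABCB9 also lay above its Control libraries, without passing the test. ABCD3 (PMP70), a peroxisomal member that handles branched-chain acyl groups, fell from 77.2 to 81.6 CPM in Control to 69.7 to 75.4 CPM in Dox libraries, without overlap (log2 fold change -0.13, SE 0.032, FDR 0.000398). Among mitochondrial members, ABCB8 of the inner membrane rose (log2 fold change 0.11, SE 0.041, FDR 0.0245) and ABCB6, a porphyrin transporter, fell (log2 fold change -0.18, SE 0.073, FDR 0.0407), each with overlap between groups. ABCB8 was at 34.7 to 38.5 CPM in Control and 38.1 to 40.1 CPM in Dox libraries, and ABCB6 at 15.7 to 20.9 and 14.9 to 17.1 CPM. ABCB10, also of the inner membrane, did not pass the test, with a log2 fold change of 0.03.

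Soluble members barely moved. ABCE1 rose (log2 fold change 0.09, SE 0.023, FDR 0.00201) from 211.1 to 222.7 CPM in Control to 224.2 to 232.9 CPM in Dox libraries, without overlap, and ABCF1 rose (log2 fold change 0.06, SE 0.025, FDR 0.0413) from 178.4 to 184.3 CPM to 182.9 to 197.4 CPM, with overlap. ABCF2 and ABCF3 had log2 fold changes of 0.00 and 0.02 and did not pass the test. The biological coefficient of variation, which sets how small a change can pass, was 2.80% in Tet-PTF1a against 6.58% in Tet-MIST1 and 14.4% in Tet-One. The calls of ABCB6, ABCB8 and ABCF1 were lost in 6, 3 and 5 of the 8 fits that left out 1 library, where their log2 fold changes ran from -0.27 to -0.13, from 0.08 to 0.13 and from 0.03 to 0.08. With all 24 libraries in a single fit, 9 of 30 members were called in Tet-PTF1a, and fewer of all genes were called as well (counts below).

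**Figure D4:**
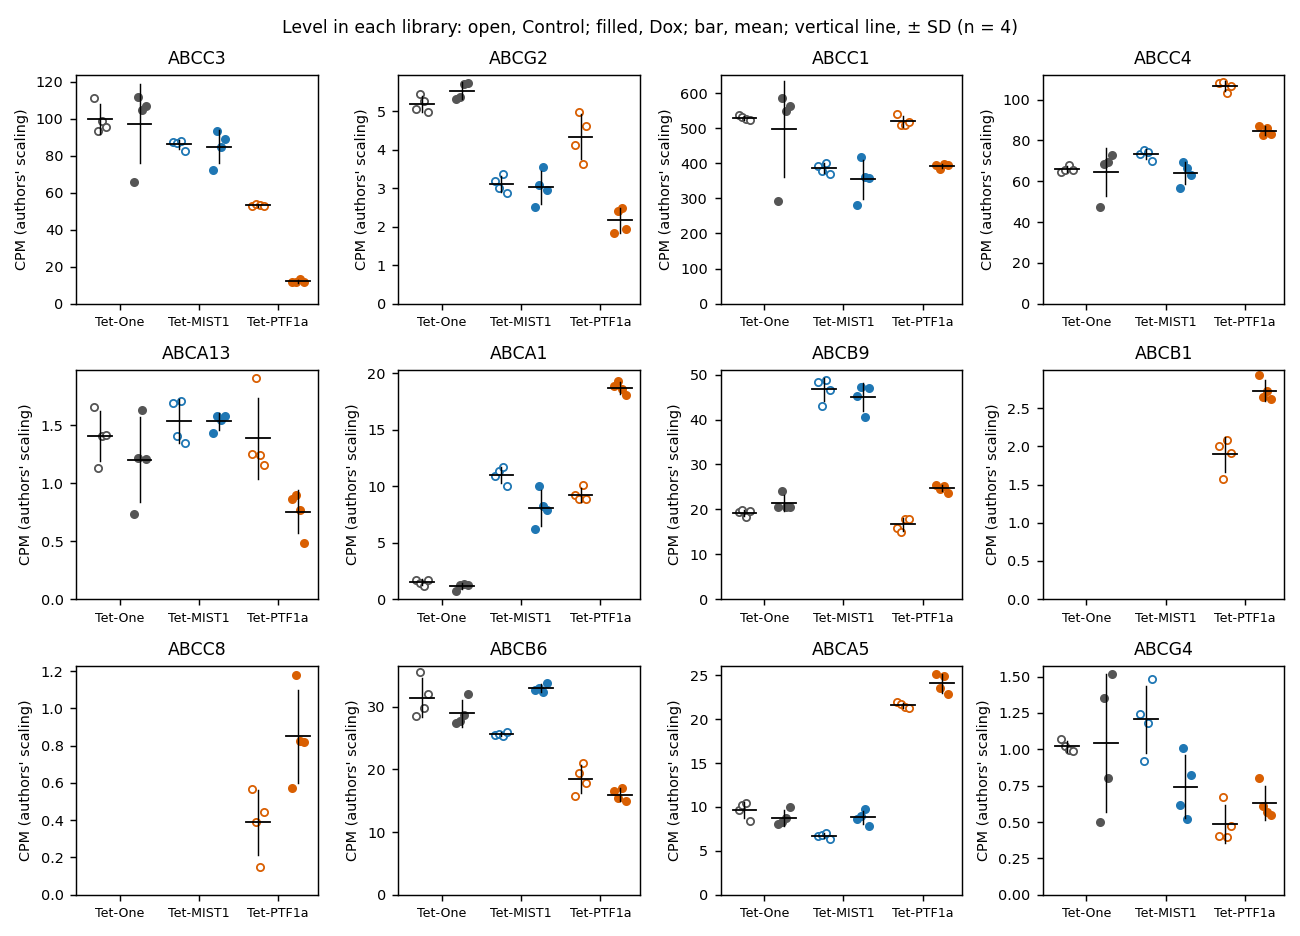
Level of 12 members in each library, in the authors' CPM on linear axes from 0, with open points for Control, filled points for Dox, a bar for the mean and a vertical line for ± SD (n = 4 libraries). ABCC3, ABCG2, ABCC1 and ABCC4 fall with Dox in Tet-PTF1a, ABCA1 and ABCB9 rise there, ABCB6 rises in Tet-MIST1, and ABCB1 and ABCC8 have points for Tet-PTF1a only.

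With Dox in Tet-MIST1, 9 of 30 members changed, 4 upward and 5 downward. Among all 13623 genes tested, 11.9% were higher and 8.77% lower. With all libraries fitted, the response differed from that in Tet-One for 2 members, ABCA5 and ABCB6. The rises belonged to lipid, porphyrin and drug transporters of moderate level, the largest being 1.32-fold (ABCA5). The largest change was a fall, 1.57-fold for the low ABCG4. The members' median absolute log2 fold change was 0.08, beside 0.12 over all genes. ABCB6 (hg19 chr2:220074488-220083712, minus strand, 19 exons) was at 25.5, 25.7, 25.3 and 26.0 CPM in Control and at 32.7, 33.0, 32.3 and 33.8 CPM in Dox libraries. Replicates were close and the groups did not overlap (log2 fold change 0.37, SE 0.044, FDR 0.000172). ABCA5 was at 6.66, 6.78, 7.05 and 6.34 CPM in Control and at 8.62, 8.99, 9.76 and 7.88 CPM in Dox libraries (log2 fold change 0.40, SE 0.075, FDR 0.00365). ABCA7, known for phospholipid efflux and phagocytosis, was at 19.6, 17.7, 19.4 and 18.9 CPM in Control and at 22.5, 27.8, 22.1 and 24.3 CPM in Dox libraries (log2 fold change 0.36, SE 0.074, FDR 0.00621). Neither overlapped between groups. ABCC10 rose from 43.6, 41.6, 43.9 and 42.4 CPM in Control to 44.8, 59.1, 54.6 and 59.4 CPM in Dox libraries (log2 fold change 0.36, SE 0.078, FDR 0.0094), and its lowest Dox library, replicate 1, was still above all Control libraries.

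The members that fell in Tet-MIST1 were closer to the threshold. ABCG4, a sterol transporter of neural tissue, was at 1.24, 0.922, 1.18 and 1.48 CPM in Control and at 0.616, 1.01, 0.523 and 0.820 CPM in Dox libraries, or 20 to 54 counts. The groups overlapped, and the change was 1.57-fold downward (log2 fold change -0.65, SE 0.21, FDR 0.0403). ABCA1 was at 10.9, 11.3, 11.7 and 10.0 CPM in Control and at 6.18, 10.0, 8.24 and 7.94 CPM in Dox libraries (log2 fold change -0.43, SE 0.12, FDR 0.0227). The closest ABCA1 libraries of the groups were almost equal, at 10.02 CPM each. ABCC4 was at 73.4, 75.3, 74.4 and 69.9 CPM in Control and at 56.9, 69.7, 66.3 and 63.2 CPM in Dox libraries (log2 fold change -0.18, SE 0.059, FDR 0.0459). ABCC5 was at 71.0, 71.1, 71.9 and 67.6 CPM in Control and at 47.3, 63.5, 60.6 and 63.9 CPM in Dox libraries (log2 fold change -0.25, SE 0.081, FDR 0.0474). Neither group of libraries overlapped, with replicate 1 the lowest of the Dox libraries in both. ABCF2, a soluble ATPase, fell from 168.5 to 178.7 CPM in Control to 130.7 to 157.5 CPM in Dox libraries (log2 fold change -0.20, SE 0.058, FDR 0.0333). Leaving out 1 library at a time, ABCB6, ABCA5, ABCA7 and ABCC10 stayed called in all 8 fits, whereas ABCG4, ABCA1, ABCF2, ABCC4 and ABCC5 did so in 3, 3, 4, 2 and 2. With Tet-MIST1 Dox replicate 1 left out, 9 members were called, and with Tet-MIST1 Control replicate 1 or replicate 3 left out, 4 were called. Counts over all genes are not given here for those fits.

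Of 8 drug efflux genes tested in Tet-MIST1, 1 rose, 2 fell and 5 did not pass the test, beside 11.9% of all genes higher and 8.77% lower. Their median log2 fold change was -0.07. ABCC1 was at 393, 377, 401 and 370.1 CPM in Control and at 282, 417, 359.8 and 358 CPM in Dox libraries, which spread widely around the Control values (log2 fold change -0.11, SE 0.091, FDR 0.395). ABCC3 was at 87.5, 86.7, 87.9 and 82.5 and at 72.5, 93.4, 84.7 and 88.9 CPM, and its 95% interval for the log2 fold change, from -0.14 to 0.12, leaves out the size of the change in Tet-PTF1a. For ABCG2 the values were 3.18, 3.00, 3.35 and 2.88 in Control and 2.51, 3.07, 3.56 and 2.96 CPM in Dox libraries, with an interval from -0.25 to 0.19. ABCC2, at 1.69, 1.64, 1.78 and 1.68 and at 1.16, 1.45, 1.65 and 1.64 CPM, and ABCC6, at 1.69, 2.35, 2.20 and 2.22 and at 1.70, 2.43, 2.15 and 2.31 CPM, had overlapping groups.

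Whether the lines answered differently was tested with an interaction term, fitted on the 16 libraries of a pair of lines. Between Tet-PTF1a and Tet-MIST1, which share no library, 18 of 30 members differed, 8 with a higher and 10 with a lower log2 fold change in Tet-PTF1a, beside 17.8% and 18.6% of all 13506 genes tested. ABCC3 (log2 difference -2.10, SE 0.085, FDR 6.85e-14), ABCA1 (log2 difference 1.46, SE 0.13, FDR 2.05e-08), ABCG4 (log2 difference 1.02, SE 0.35, FDR 0.0178) and ABCG2 (log2 difference -0.95, SE 0.17, FDR 0.000165) differed most. The difference for ABCG4 was not called when Tet-PTF1a Dox replicate 1 was left out (FDR 0.0512), and those of ABCB8, ABCC1, ABCA5 and ABCF2 were lost in 10, 6, 4 and 2 of 16 fits that left out 1 library. Smaller differences with a lower change in Tet-PTF1a included those of ABCA13 (-0.82), ABCB6 (-0.56 with an SE of 0.092), ABCA7 (-0.38), ABCC10 (-0.35), ABCC1 (-0.28), ABCA5 (-0.24) and ABCD3 (-0.20). Those with a higher change there were ABCB9 (0.62), ABCC5 (0.44), ABCA3 (0.32), ABCD4 (0.22), ABCF2 (0.21) and ABCB8 (0.19). Drug efflux genes thus lay on both sides, with ABCC1, ABCC3, ABCC10 and ABCG2 lower and ABCC5 higher, while ABCC4 had no called difference (-0.13, FDR 0.112).

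**Figure D5:**
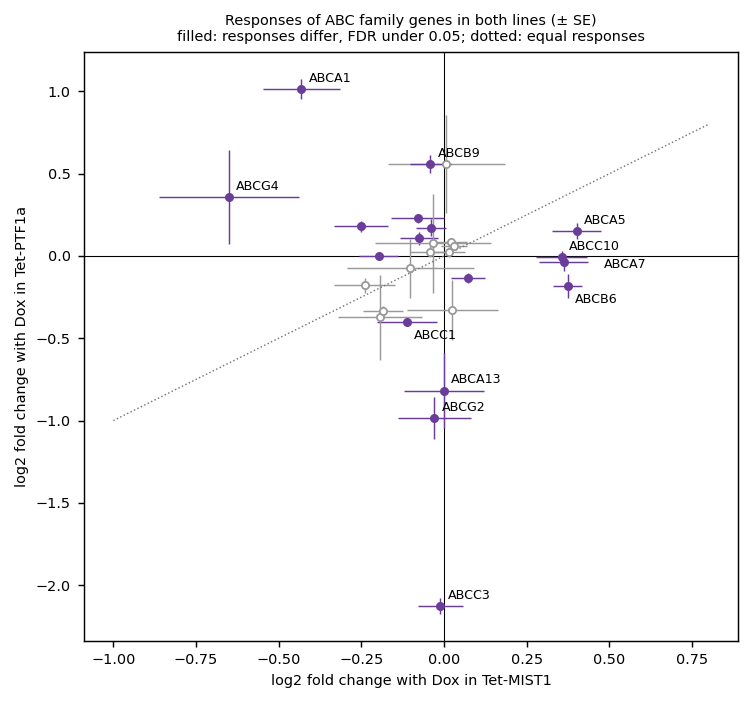
Log2 fold change with Dox in Tet-MIST1 (horizontal axis) and in Tet-PTF1a (vertical axis) of members listed for both lines, each with its SE, filled where the responses differ with FDR under 0.05 and with a dotted line of equal responses. ABCA1 and ABCG4 lie at the upper left, ABCC3 and ABCG2 lie near 0 in Tet-MIST1 and far below 0 in Tet-PTF1a, and ABCB6 lies to the right and slightly below 0.

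Called in both lines were 5 members, which are 5 of the 9 in Tet-MIST1 and 5 of the 20 in Tet-PTF1a, beside 20.6% and 48.2% of all genes called. The share of all genes called in both lines was not computed, so this overlap is not read as a result. Leaving out 1 library at a time, the Tet-MIST1 calls of ABCA1, ABCC4 and ABCC5 stayed in 3, 2 and 2 of 8 fits. The Tet-PTF1a call of ABCB6 stayed in 2 of 8, and only ABCA5 stayed called in all fits of both lines. ABCA5 rose and ABCC4 fell in both, whereas ABCA1 and ABCC5 fell in Tet-MIST1 and rose in Tet-PTF1a, and ABCB6 rose in Tet-MIST1 and fell in Tet-PTF1a. With all libraries fitted, the falls of ABCA1 and ABCC5 in Tet-MIST1 were not shown to differ from Tet-One. There ABCA1 had a log2 fold change of -0.36 and ABCC5 one of -0.09, both not called. The log2 difference of Tet-MIST1 from Tet-One was -0.07 (FDR 0.982) for ABCA1 and -0.17 (FDR 0.896) for ABCC5. Without Tet-One Dox replicate 1 it was -0.22 (FDR 0.546) for ABCA1 and -0.33 (FDR 0.0324) for ABCC5, which then differed. MIST1 and PTF1a are basic helix-loop-helix factors, which bind E boxes (CANNTG), and PTF1a acts in a complex that also reads a TGGGAA-type box. The 250 bases before the RefSeq start of these 5 members (GRCh38.p14, a build other than the hg19 of the counts, minus strand in each) are shown because the members were called in both lines. Every CANNTG is in capitals.
ABCA1 (chr9:104928156-104928405): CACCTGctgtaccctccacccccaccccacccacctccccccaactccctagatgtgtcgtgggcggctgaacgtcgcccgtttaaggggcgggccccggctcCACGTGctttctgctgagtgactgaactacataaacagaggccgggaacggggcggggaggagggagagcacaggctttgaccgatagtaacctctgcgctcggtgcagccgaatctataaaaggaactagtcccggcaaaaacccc
ABCA5 (chr17:69327134-69327383): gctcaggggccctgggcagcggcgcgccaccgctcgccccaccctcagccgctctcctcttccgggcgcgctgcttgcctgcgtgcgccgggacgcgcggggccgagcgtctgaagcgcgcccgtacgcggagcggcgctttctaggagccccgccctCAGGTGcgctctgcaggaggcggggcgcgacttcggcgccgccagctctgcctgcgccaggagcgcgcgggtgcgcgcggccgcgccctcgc
ABCB6 (chr2:219218959-219219208): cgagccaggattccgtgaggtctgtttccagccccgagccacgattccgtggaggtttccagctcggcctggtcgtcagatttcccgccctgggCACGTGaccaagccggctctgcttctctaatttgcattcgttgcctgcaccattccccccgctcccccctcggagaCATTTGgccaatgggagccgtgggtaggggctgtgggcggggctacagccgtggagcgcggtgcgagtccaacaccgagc
ABCC4 (chr13:95301452-95301701): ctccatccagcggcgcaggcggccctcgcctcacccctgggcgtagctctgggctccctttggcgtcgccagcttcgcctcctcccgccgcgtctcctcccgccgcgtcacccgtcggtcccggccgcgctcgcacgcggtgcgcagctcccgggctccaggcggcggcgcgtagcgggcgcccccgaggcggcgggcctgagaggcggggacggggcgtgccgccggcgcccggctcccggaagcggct
ABCC5 (chr3:184017885-184018134): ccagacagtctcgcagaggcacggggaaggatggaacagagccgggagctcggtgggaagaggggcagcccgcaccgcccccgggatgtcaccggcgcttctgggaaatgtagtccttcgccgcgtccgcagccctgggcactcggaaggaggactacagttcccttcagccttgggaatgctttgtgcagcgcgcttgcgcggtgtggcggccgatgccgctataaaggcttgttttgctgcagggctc

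The ABCA1 and ABCB6 windows each held 2 E boxes, the ABCA5 window held 1, and those of ABCC4 and ABCC5 held none. The CACGTG form was in the ABCA1 and ABCB6 windows, which belong to members that went in opposite directions in both lines. On either strand, TGGGAA stood at 3 places of the ABCC5 window and in none of the other 4. RefSeq windows were found for 25 of the 32 members, 37 windows in all, and entries were lacking for 7 members, among them ABCA4, ABCC1, ABCC3, ABCC8 and ABCG1. CANNTG was in 67.6% of the members' windows and in 61.8% of all 35114 windows, CAGCTG (a form of CANNTG) in 16.2% and 14%, CATCTG (another form) in 13.5% and 12.2%, and TGGGAA in 16.2% and 20.8%, both strands counted. Such matches describe these letters only and say nothing of binding.

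Against the empty-plasmid line, 2 of 30 members had a higher and 0 a lower response in Tet-MIST1, beside 1.48% and 0.187% of all genes. A total of 3 had an unadjusted p under 0.05, beside 1580 of all 13879 genes. Those called were ABCA5 (log2 difference 0.54, SE 0.13, FDR 0.0389) and ABCB6 (log2 difference 0.48, SE 0.094, FDR 0.0132). In the Tet-One libraries ABCB6 was at 28.5, 35.5, 29.7 and 32.0 CPM in Control and at 27.4, 27.7, 28.7 and 32.0 CPM in Dox libraries, and ABCA5 at 9.69, 10.3, 10.4 and 8.42 and at 8.01, 8.26, 8.74 and 9.98 CPM. Neither gene had its Dox libraries above all Control libraries there. The call of ABCA5 was lost in 12 of 16 fits that left out 1 library. For Tet-PTF1a, 2 members had a higher and 2 a lower response than in Tet-One, beside 5.52% and 7.34% of all genes. Lower were ABCC3 (log2 difference -2.09, SE 0.18, FDR 9e-07) and ABCG2 (log2 difference -1.08, SE 0.15, FDR 6.77e-05), and higher were ABCA1 (log2 difference 1.37, SE 0.20, FDR 0.000164) and ABCB9 (log2 difference 0.40, SE 0.095, FDR 0.00936). For these the Tet-One levels ran, in Control and Dox libraries, as 1.14 to 1.73 and 0.738 to 1.37 CPM for ABCA1 and as 18.2 to 19.8 and 20.6 to 24.2 CPM for ABCB9. The ABCA1 groups overlapped, whereas the Tet-One Dox libraries of ABCB9 lay above its Control libraries. These comparisons share the Tet-One libraries and are not independent of each other. Without Tet-One Dox replicate 1, 2 members were higher and 4 lower in Tet-MIST1, beside 8.5% and 5.4% of all genes, and 6 were higher and 9 lower in Tet-PTF1a, beside 14.6% and 16.1%. The added members in Tet-MIST1 were ABCA2, ABCC4, ABCC5 and ABCG4, all lower. In Tet-PTF1a ABCC1 (log2 difference -0.50, SE 0.04, FDR 4.52e-11), ABCC4 (log2 difference -0.43, SE 0.048, FDR 3.35e-08), ABCA2, ABCA7, ABCA13 and ABCD3 were among those that then joined the lower members, and ABCA3, ABCA5, ABCD4 and ABCE1 joined the higher members. With all libraries but each library's trend with exon length removed, 2 members were higher and 6 lower in Tet-PTF1a than in Tet-One (2674 of all genes called against 1738), and 1 was higher and 0 lower in Tet-MIST1 (628 of all genes against 231).

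Before Dox the lines already differed in most members. Of 30 members, 12 were higher and 12 lower in Tet-MIST1 Control than in Tet-One Control, beside 39.5% and 40.7% of all genes, and of 28 tested, 10 were higher and 16 lower in Tet-PTF1a Control than in Tet-One Control, beside 39.5% and 40.1%. Both comparisons use the same Tet-One Control libraries. ABCA1 was at 1.73, 1.47, 1.14 and 1.69 CPM in Tet-One Control, against 10.02 to 11.7 CPM in Tet-MIST1 Control and 8.84 to 10.1 CPM in Tet-PTF1a Control libraries. It was 7.07-fold higher in Tet-MIST1 (log2 difference 2.82, SE 0.10, FDR 4e-15) and 5.60-fold higher in Tet-PTF1a (log2 difference 2.49, SE 0.11, FDR 2.11e-12), both larger than its 2.02-fold rise with induced PTF1a. ABCA7 was lower in both (log2 difference -1.34 and -1.14), with 46.2, 51.0, 45.7 and 47.8 CPM in Tet-One Control and 17.7 to 19.6 and 21.5 to 24.02 CPM in the other Control groups. ABCB9 was higher in Tet-MIST1 Control (log2 difference 1.27, SE 0.05, FDR 1.83e-14), at 48.4, 43.0, 48.8 and 46.6 CPM, and lower in Tet-PTF1a Control (log2 difference -0.29, FDR 0.00029). The latter was -0.04 with FDR 0.459 once each library's trends with exon GC content and length had been removed. ABCA5 went in opposite directions (log2 difference -0.53 and 1.07), and ABCC3 was lower in both (-0.22 and -0.99), so that the fall with induced PTF1a started from a lower level than in the other lines.

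Genes that work with members gave mixed counts. Of 15 genes of sterol regulation and handling, 2 rose and 7 fell in Tet-PTF1a, where 23.8% of all genes tested were higher and 24.4% lower. The falls included the master regulator SREBF1 (log2 fold change -0.57, FDR 2.34e-23), the lipoprotein receptor SCARB1 (-0.61, FDR 4.92e-22), APOE (-0.48, FDR 1.67e-14) and RXRA, a partner of the liver X receptors (-0.35, FDR 2.4e-10), while MYLIP (0.28) and RXRB (0.16) rose. In Tet-MIST1, where 11.9% of all genes were higher and 8.77% lower, 1 rose (SCARB1, 0.35, FDR 0.000648) and 1 fell (SOAT1, -0.13, FDR 0.0426). The median over the list was -0.07 in Tet-PTF1a and 0.01 in Tet-MIST1. The liver X receptor genes NR1H2 and NR1H3, which control ABCA1 and ABCG1, passed the test in neither line.

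The same shares of all genes stand beside the counts of the lists that follow. Among 7 tested genes of xenobiotic and glutathione control, AHR rose (log2 fold change 0.14, FDR 0.00014) and NFE2L2, which encodes NRF2, fell (-0.20, FDR 1.17e-05) in Tet-PTF1a, whereas NFE2L2 rose in Tet-MIST1 (0.14, FDR 0.0474). Of 5 peroxisome import genes, PEX5, PEX19 (which delivers ABCD proteins to the peroxisome) and HSD17B4 rose in Tet-PTF1a, by 0.27, 0.13 and 0.07 on the log2 scale, and none passed the test in Tet-MIST1. Of 5 tested ribosome recycling and translation control genes, PELO (0.31, FDR 6.83e-07), ETF1 (0.11) and EIF2AK4 (0.09) rose in Tet-PTF1a, where PELO is a partner of ABCE1. In Tet-MIST1 HBS1L (0.29) and EIF2S1 (0.19) rose and EIF2AK4 (-0.25) fell. TAP1 and TAP2, the antigen peptide transporters that belong to the family under other symbols, passed the test in none of the lines, and both are also listed on alternative sequences of their chromosome region. No gene of these lists passed the test in Tet-One.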

How the data were processed

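RNA-seq was analysed for 24 Panc-1 libraries in 6 groups of 4, taken from the sample labels. The authors aligned paired-end HiSeq reads to hg19, and the submitters' processing notes list TopHat, HTSeq, DESeq and edgeR without versions or roles. The authors deposited 1 table for each line with whole-number counts per gene and CPM per library (handled as a normalised signal), which they scaled within the table. The tables list only genes that pass a filter on low CPM, so genes below it were not analysed here. The authors' own fold change, p and FDR columns in the tables were not used.

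Here counts were fitted with edgeR 4.0.16 (TMM, robust quasi-likelihood, prior count 2 for log2 fold changes) in R 4.3.3, within the libraries of each comparison, with genes kept at over 0.5 CPM in at least 4 libraries and the Benjamini-Hochberg FDR, limit 0.05, over all genes tested. Lines were joined by symbol, with symbols that a spreadsheet had turned into dates kept apart by chromosome and length. Differences between responses were tested as an interaction. The interval of a log2 fold change is 95%. Levels are the authors' CPM, or CPM per kb of exons where genes are compared, and the depth per library limits them. Genes named are the drug efflux members, the 10 and 5 called members with the largest change in Tet-PTF1a and Tet-MIST1, other called members by their change (values of some members are not reported here, though counts include them), and the 3 highest and lowest. The members and gene lists were chosen with earlier results of these data known, and the lists were adjusted over all genes only. Of 36 replicate pairs none was alike within sampling noise (chi-square 1.39 to 238 per degree of freedom). The methods call the replicates biological, but nothing names separate cultures, so p-values may measure technical spread. Alternatives were RLE, upper quartile or no scaling factors, other filters and prior counts, DESeq2 1.42.0, a fold limit, a replicate block, all libraries in 1 fit, removal of trends with exon length and each library left out. The fits were tested on simulated data with the same spread for all genes and changes of 1 on the log2 scale. Smaller changes and outlying libraries were not simulated. Promoter windows are from RefSeq (GRCh38.p14).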

Additional observations from a re-analysis of the deposited data

Results flagged for a closer look

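Single libraries far from their group mates were looked for in 106 groups of 4 libraries with Dixon's test, and 9 were found, where chance gives about 1 in 20. In Tet-One Dox, 6 of the 9 had a lowest library that was replicate 1. They were ABCC1 at 291.9 CPM (next 549.1 CPM), ABCC3 at 65.7 CPM (next 104.8 CPM), ABCC4 at 47.2 CPM (next 68.7 CPM), ABCC5 at 35.9 CPM (next 64.4 CPM), ABCA3 at 65.3 CPM (next 136.0 CPM) and the summed level of 8 drug efflux genes at 76.4 CPM per kb (next 135.5). ABCB9 in the same group had a highest library of 24.2 CPM (next 20.6 CPM), which was replicate 2. In Tet-PTF1a ABCA13 had a highest Control library of 1.90 CPM (next 1.25 CPM), and ABCC3 had a highest Dox library of 13.2 CPM (next 11.8 CPM).

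Responses to Dox that differed between lines, by the interaction test, are given as log2 differences. Tet-MIST1 exceeded Tet-One for ABCA5 by 0.54 and for ABCB6 by 0.48. The difference of Tet-PTF1a from Tet-One was -2.09 for ABCC3, 1.37 for ABCA1, -1.08 for ABCG2 and 0.40 for ABCB9. That of Tet-PTF1a from Tet-MIST1 was -2.10 for ABCC3, 1.46 for ABCA1, 1.02 for ABCG4, -0.95 for ABCG2, -0.82 for ABCA13, 0.62 for ABCB9, -0.56 for ABCB6, 0.44 for ABCC5, -0.38 for ABCA7, -0.35 for ABCC10 and 0.32 for ABCA3. It was also -0.28 for ABCC1, -0.24 for ABCA5, 0.22 for ABCD4, 0.21 for ABCF2, -0.20 for ABCD3 and 0.19 for ABCB8.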

How the results depend on the processing

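Values checked here were those of every member called with Dox in a line or in an interaction. Between uninduced lines only ABCA1, ABCA7 and ABCB9 were checked, and other called members there were not. No value checked changed direction under any alternative. Of these 59 values, all 59 stayed called with RLE size factors, without the filter on low counts and with a smaller prior count. With upper quartile scaling 58 stayed called, with DESeq2 57 and with library size alone 54. The largest shift of the median of all genes under another scaling was 0.086 on the log2 scale. Asking also for a change of at least 0.5 (log2, either way) left 1 called member in Tet-MIST1 and 6 in Tet-PTF1a, 1 and 7 for the response of Tet-MIST1 against Tet-One and of Tet-PTF1a against Tet-MIST1, and 12 and 14 between uninduced Tet-MIST1 or Tet-PTF1a and Tet-One. Over all genes it left 405 of 2812 in Tet-MIST1 and 1530 of 6775 in Tet-PTF1a, and counts over all genes for the other comparisons are not given here. With all 24 libraries in 1 fit, 4 members were called in Tet-MIST1 (1703 of all genes) and 9 in Tet-PTF1a (3128 of all genes). Removing the exon length trend took the count for Tet-MIST1 against Tet-One from 2 to 1 (628 of all genes, against 231) and that for Tet-PTF1a against Tet-One from 4 to 8 (2674 of all genes, against 1738). Removing length and GC trends together, chosen after seeing the data, gave 4 (858 of all genes) and 8 (2762 of all genes), and the cause was not tested.

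The replicate numbers did not pair Control and Dox libraries, since the correlations of same-numbered deviations ran from -0.444 to 0.39 and 2 of 12 Control libraries went best with their own number. With the replicate block 5 members were called in Tet-MIST1 (1463 of all genes) and 0 for Tet-MIST1 against Tet-One, where ABCB6 had FDR 0.0777 and ABCA5 FDR 0.189. The other counts with the block were 20 in Tet-PTF1a, 5 and 17 for Tet-PTF1a against Tet-One and Tet-MIST1, and 24 and 26 between uninduced lines. Counts over all genes are not given here for these, so they are not read as a result about the family.

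Leaving out 1 library at a time gave 0 to 0 called members in Tet-One, 4 to 10 in Tet-MIST1 and 17 to 21 in Tet-PTF1a. For responses the ranges were 1 to 6 (Tet-MIST1 against Tet-One), 4 to 15 (Tet-PTF1a against Tet-One) and 15 to 19 (Tet-PTF1a against Tet-MIST1), and between uninduced lines 21 to 24 and 24 to 26. In Tet-MIST1 the count was 4 without Control replicate 1 or 3 and 5 without Control replicate 2 or 4 or Dox replicate 3 or 4, fewer samples being fitted. The upper ends 6 and 15 came without Tet-One Dox replicate 1, for which shares of all genes are given above. For the other fits such shares are not given here, so the ranges are not read as a result about the family.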
